A study of Mus musculus with 17 samples.

Results

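The ATP-binding cassette (ABC) transporters, the organic anion carriers of the SLCO family and the bile acid carriers of the SLC10 family were followed across 17 single-colour Agilent mouse arrays. Their members were chosen by gene name, that is, every non-control probe whose name begins with Abca to Abcg, Slco or Slc10a followed by a digit. The name rule itself uses no measured values, but it was set with earlier results of these data known. It gave 72 genes and 95 probes among 31694 gene names and 39429 probes, and 62 of these genes (76 probes) were among the 25788 genes tested. The other 10 (Slc10a4, Slco6b1, Slco6c1, Slco6d1, Abca12, Abca13, Abca14, Abca16, Abcb5 and Abcg3) did not pass the filter, which asks for a signal well above background on at least 2 of the 17 arrays.

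All 5 groups carry the label Foxl1-CRE; RosaYFP: per the labels, offspring of mice with Cre recombinase driven by Foxl1, crossed to a Rosa26 yellow fluorescent protein reporter, aged 6 to 10 weeks. Undifferentiated adult hepatic progenitor cells were hybridised on 4 arrays. In vitro differentiation of progenitors gave a hepatocyte condition (4 arrays) and a cholangiocyte condition (3 arrays), the latter named for the epithelium of bile ducts. Primary hepatocytes (4 arrays) and primary cholangiocytes (2 arrays) came from the same strain. The labels do not give the culture media and times or the origin of replicates, so the spread behind each p-value is that of these arrays and may be technical. Arrays are numbered by their hybridisation, so the primary cholangiocyte arrays are 3 and 4.

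In the liver, hepatocytes take bile acids and other organic anions from the blood across their sinusoidal face, through the sodium-coupled carrier NTCP (Slc10a1) and the sodium-independent carriers of the SLCO family. ABC pumps then move bile acids, phospholipid, cholesterol, conjugated bilirubin and drugs across the canalicular face into bile. Pumps of the ABCC family on the basolateral face return conjugates to the blood, and in bile ducts and ileum the sodium-coupled carrier ASBT (Slc10a2) takes bile acids up from the lumen. Other members serve lipid efflux, peroxisomes, mitochondria or translation.

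The stretches before the annotated starts of 3 genes on which the results turn are shown first, because they hold matches to motifs of regulators of bile acid transport. Of the 72 members, 56 had an entry among 27025 RefSeq promoters (GRCm38.p6), of which the 250 bases before the start were searched on both strands. The motif AGGNCANTGACCT is an inverted repeat of the kind that the bile acid receptor FXR (Nr1h4) binds. It was present in 9 of the 27025 stretches (0.0333%), and Abcb11 and Slco1b2 were the 2 members among them. The pattern leaves a base of its left arm open, and at that base neither match is an exact inverted repeat. Which genes match thus depends on that open base, so no enrichment is read from the low share of stretches. The motif GTTAATNAT, the left arm of the palindrome that the liver factor HNF1 binds, was present in 211 (0.781%), and Slc10a2 and Slco1b2 were the members among them. The whole palindrome GTTAATNATTAAC, which holds that arm, was found in 2 of all stretches and in 0 members. Capitals mark the AGGNCANTGACCT match, 63 to 51 bases before the start of Abcb11 and 88 to 76 before that of Slco1b2, and the GTTAATNAT match on the other strand of Slc10a2, 220 to 212 bases before its start. The Slco1b2 stretch ends at the base before the outermost start annotated for that gene, which lies upstream of the start of its promoter entry. The positions 88 to 76 count from the start of the promoter entry, not from the end of the bases shown. The GTTAATNAT match of Slco1b2 is not in the bases shown. These are matches of letters and say nothing of binding.
Abcb11, chr2:69342617-69342866, minus strand: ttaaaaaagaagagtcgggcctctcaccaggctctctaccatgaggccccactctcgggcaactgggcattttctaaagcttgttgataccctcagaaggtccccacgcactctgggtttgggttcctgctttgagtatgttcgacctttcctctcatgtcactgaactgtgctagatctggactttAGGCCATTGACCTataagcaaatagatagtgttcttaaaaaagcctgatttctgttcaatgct
Slco1b2, chr6:141629268-141629451, plus strand: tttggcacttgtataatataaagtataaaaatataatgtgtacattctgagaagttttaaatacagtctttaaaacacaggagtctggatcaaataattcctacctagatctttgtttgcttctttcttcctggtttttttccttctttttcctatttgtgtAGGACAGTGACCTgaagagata
Slc10a2, chr8:5105288-5105537, minus strand: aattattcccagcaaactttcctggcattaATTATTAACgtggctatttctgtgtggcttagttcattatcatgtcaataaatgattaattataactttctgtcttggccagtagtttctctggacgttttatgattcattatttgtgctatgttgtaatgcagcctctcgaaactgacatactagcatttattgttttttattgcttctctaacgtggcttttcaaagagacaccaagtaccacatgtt

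Each value is the log2 of a probe's intensity minus that of the 75th percentile (P75) of its array. A difference is the mean of the first group minus that of the second on this log2 scale, and its standard error (SE) comes from 1 limma model of the 17 arrays. The text says called, or rose and fell, where the p-value adjusted by Benjamini-Hochberg for 25788 genes was under 0.05. Where no array of a group had the probe well above background, the fold is a lower bound computed from the dimmest signals above background, written as at least N-fold. The 75th percentile of intensity was 544 to 983 on the primary hepatocyte arrays and 1739 to 2847 on the others, and 23902 to 29256 probes per array were well above background. Albumin (Alb) read 9.46 to 10.32 in primary hepatocytes and -4.93 and -9.64 in primary cholangiocytes. In the hepatocyte condition Alb read 7.63, -4.75, 7.58 and -3.65 on arrays 1 to 4, and among undifferentiated cells it read 6.01 on array 1 and -8.74 to 1.26 on the others. The biliary keratin Krt19 read 5.86 or more in the cholangiocyte condition, 6.69 and 7.30 in primary cholangiocytes and -5.84 or less in primary hepatocytes. It was also high in undifferentiated cells (5.67 to 7.04) and in the hepatocyte condition (3.79 to 5.17). The epithelial adhesion gene Epcam read 2.22 and 3.06 in primary cholangiocytes but -7.25 to -6.24 in the cholangiocyte condition, below its level in primary cholangiocytes on all 3 arrays. Both genes are from a list of 11 tested biliary markers. Of these, 8 were called lower and 1 higher in primary hepatocytes than in primary cholangiocytes. In the cholangiocyte condition 4 were called lower and 2 higher than in primary cholangiocytes. Aqp1 and Cftr were brighter on every primary hepatocyte array than in primary cholangiocytes. Spp1 read 3.87 to 4.55 in the cholangiocyte condition but 0.33 and -0.55 in primary cholangiocytes. The summed level of the 11 biliary markers was 7.78 to 8.12 in primary cholangiocytes, 7.05 to 7.63 in the cholangiocyte condition and 3.11 to 3.42 in primary hepatocytes. It was 7.02 to 7.78 in undifferentiated cells and 6.97 to 7.28 in the hepatocyte condition. In bulk samples such as these, fewer cells of a type and less RNA per cell cannot be told apart.

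Between the primary cell types, 35 of the 62 members were higher in hepatocytes and 9 were higher in cholangiocytes, against 27.9% and 21.6% of all genes tested. All 6 sinusoidal uptake carriers, 6 of 8 canalicular pumps and the mitochondrial transporters Abcb6, Abcb8 and Abcb10 were higher in primary hepatocytes. Among the uptake carriers, Slc10a1 is counted by a probe listed for several genes, whose difference reversed under quantile normalization. Its other probe, listed for Slc10a1 alone, was called higher too. The median difference was 1.09 for the members and 0.35 for all genes. The progenitors put under hepatocyte differentiation had 8 members higher and 5 lower than undifferentiated cells, where 7.58% and 7.63% of all genes were called. Under median scaling these counts were 8 and 8, and with normexp background correction 5 and 5. In the cholangiocyte condition 1 member was higher and 1 lower than in undifferentiated cells, where 0.76% and 0.597% of all genes were called. With quantile normalization these were 1 and 2.

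Against the primary cells of the same name, 34 members were lower and 13 higher in the hepatocyte condition, where 33.6% of all genes were lower and 26% higher. In the cholangiocyte condition 14 members were higher and 4 lower than in primary cholangiocytes, where 12% of all genes were higher and 7.6% lower. Without primary cholangiocyte array 3 the total of called members was 14, and a fit to these groups alone called 8. Between the conditions, 12 members were higher and 6 lower in the hepatocyte condition, where 6.96% and 8.43% of all genes were called, and with normexp correction 9 and 7. Comparisons that have a group in common share its arrays.

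**Figure D1:**
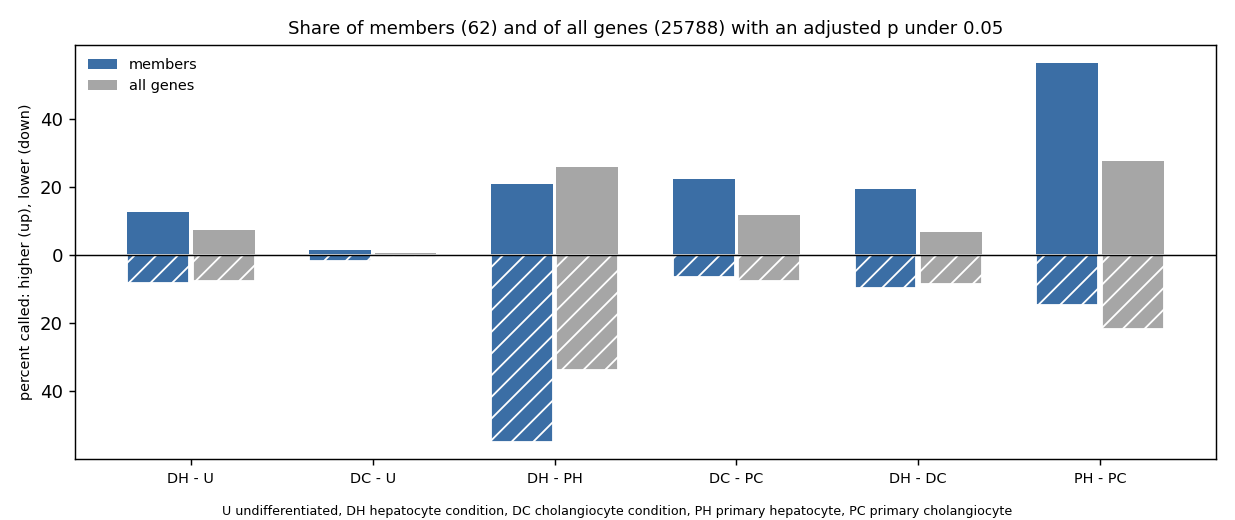
Share of the 62 members (blue) and of all 25788 genes tested (grey) called higher (bars up) or lower (hatched bars down), in percent, for 6 comparisons of U (undifferentiated), DH (hepatocyte condition), DC (cholangiocyte condition), PH (primary hepatocytes) and PC (primary cholangiocytes). Members were called lower in 34 of 62 cases for DH against PH and higher in 35 of 62 for PH against PC, and 2 were called for DC against U.

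Slc10a2, the bile acid carrier ASBT, which is known from cholangiocytes and ileum, was brightest in hepatocytes and in the hepatocyte condition and dimmest in primary cholangiocytes. It read -2.74, -2.21, -2.68 and -3.34 in undifferentiated cells and 0.90, 1.22, 0.22 and -1.51 in the hepatocyte condition. It read -2.67, -2.76 and -2.09 in the cholangiocyte condition, 1.04, 0.56, 0.84 and 0.72 in primary hepatocytes, and -5.88 and -4.09 in primary cholangiocytes. Its probe was well above background on all 17 arrays, and the hepatocyte condition did not overlap with undifferentiated cells. The rise over undifferentiated cells was 2.95 ± 0.51 (SE, adjusted p = 0.00173), with 3.43, 1.23 and 3.58 within the 3 slides that held both groups. Slc10a2 was higher in the hepatocyte than in the cholangiocyte condition by 2.72 ± 0.56 (adjusted p = 0.00467) and in primary hepatocytes than in primary cholangiocytes by 5.77 ± 0.63 (adjusted p = 3.52e-06). The hepatocyte condition and primary hepatocytes overlapped, with a difference of -0.58 ± 0.51 (adjusted p = 0.345). The cholangiocyte condition was higher than primary cholangiocytes by 2.47 ± 0.66 (adjusted p = 0.018), but without primary cholangiocyte array 3 this was 1.58 (adjusted p = 0.211) and without cholangiocyte condition array 3 it was 2.26 (adjusted p = 0.0529). With the slide as a fixed block it was 1.87 (adjusted p = 0.07). In the cholangiocyte condition against undifferentiated cells the difference was 0.23 ± 0.56 (adjusted p = 0.901). A probe under an older clone name, which the reference table gives as a synonym of Slc10a2, followed it across the 17 arrays (Pearson r = 0.986, a description of 2 probes on the same arrays), with 0.94, 1.32, 0.19 and -1.50 in the hepatocyte condition and -5.25 and -4.43 in primary cholangiocytes.

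Slc51b, which encodes a subunit of the basolateral bile acid exporter that works beside ASBT in ileum and bile ducts, is no member but was on a list of 34 other bile acid and bile formation genes, 33 of them tested. It read -8.90, -7.08, -8.75 and -9.31 in undifferentiated cells and -0.74, 0.61, 0.00 and -3.22 in the hepatocyte condition, a rise of 7.67 ± 0.94 (adjusted p = 0.000138). It was also higher there than in primary hepatocytes, by 3.91 ± 0.94 (adjusted p = 0.00252). Its partner subunit Slc51a ranged from -9.30 to -2.75 in the hepatocyte condition and was not called. Of the 33 genes, 2 rose and 2 fell in the hepatocyte condition against undifferentiated cells (7.58% and 7.63% of all genes). Nr5a2, a nuclear receptor of bile acid synthesis, was the other gene that rose (3.75 ± 0.99, adjusted p = 0.0198), with overlapping groups. Its call ended without undifferentiated array 3 or 4 or hepatocyte condition array 1 or 3 (adjusted p = 0.0508 to 0.0639). Against primary hepatocytes 23 were lower and 3 higher in the hepatocyte condition (33.6% and 26% of all genes), led by Cyp7b1 (-12.69 ± 1.23), an enzyme of bile acid synthesis. Between the primary types 22 were higher and 4 lower in hepatocytes (27.9% and 21.6% of all genes). Nr1h4, the gene of FXR, was the single gene called between the cholangiocyte condition and primary cholangiocytes, and it was higher in the former by 3.79 ± 0.85 (adjusted p = 0.00658). The primary cholangiocyte arrays read -0.22 and -4.25, and without array 4 the difference was 1.78 (adjusted p = 0.074).

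Among the sinusoidal carriers, Slco1b2, a main organic anion transporter of mouse hepatocytes, separated primary hepatocytes from the other groups. It read 7.38, 7.58, 8.24 and 7.79 in primary hepatocytes and -8.35 and -7.38 in primary cholangiocytes. Under hepatocyte differentiation it read -1.82, -6.18, -4.86 and -8.31. Undifferentiated cells gave -9.21, -7.67, -6.43 and -9.30, and cholangiocyte differentiation -8.40, -7.06 and -4.80. These 3 groups overlapped. Its difference from undifferentiated cells was 2.86 ± 1.13 (adjusted p = 0.111), which without hepatocyte condition array 4 was 3.87 (adjusted p = 0.0267) and without its array 1 was 1.70 (adjusted p = 0.291). It lay 13.04 ± 1.13 below primary hepatocytes (adjusted p = 2.67e-07). The primary types differed by 15.62 ± 1.38 (adjusted p = 4.77e-07), although 1 of the 2 cholangiocyte arrays was not well above background.

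Slc10a1, which encodes NTCP, was represented by 2 probes that gave different pictures, and their sequences bear on this. The probe with the higher mean, which stood for the gene in the fit, is listed in the array's annotation for transcripts of 4 genes (4930402H24Rik, Med16, Slc10a1 and Spc24), and it was the only one of the 95 member probes listed for several. Bases 16 to 45 of its 60 are shown, with the whole of the other probe, which is listed for Slc10a1 alone. The shown stretch has the letters of the mouse B1 repeat, a short interspersed element present in many transcripts.
Probe listed for 4 genes, bases 16 to 45: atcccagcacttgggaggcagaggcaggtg
Probe listed for Slc10a1 alone, all 60 bases: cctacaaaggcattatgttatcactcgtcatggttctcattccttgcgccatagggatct

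The probe listed for 4 genes was bright on every array, from 7.04 to 7.75 outside primary hepatocytes and from 8.19 to 8.67 in them. It gave a difference of 1.21 ± 0.18 between the primary types (adjusted p = 7.41e-05) and of 0.19 ± 0.15 between the hepatocyte condition and undifferentiated cells (adjusted p = 0.473). The signs of its differences from primary hepatocytes reversed under quantile normalization. The probe listed for Slc10a1 alone was well above background on 6 arrays: the 4 of primary hepatocytes, at 4.39 ± 0.26 (mean ± SD), and arrays 1 and 3 of the hepatocyte condition. In the hepatocyte condition it read -1.41, -8.06, -1.95 and -9.11, and elsewhere outside primary hepatocytes -9.30 to -7.02. In the fit over all probes it was at least 3763-fold higher in primary hepatocytes than in primary cholangiocytes (adjusted p = 2.17e-05). It lay 9.53 ± 1.38 below primary hepatocytes in the hepatocyte condition (adjusted p = 4.00e-05), and there it was at least 4.67-fold above undifferentiated cells, which was not called (adjusted p = 0.128). This probe was singled out after its values were seen.

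Slco2b1, Slco1a1 and Slco1a4 were each brightest on the 4 primary hepatocyte arrays. Slco2b1, an organic anion carrier of many tissues, read 3.50, 3.91, 3.54 and 3.65 in primary hepatocytes and was not well above background on any of the other 13 arrays. It was at least 2164-fold higher in primary hepatocytes than in primary cholangiocytes (adjusted p = 3.85e-13) and at least 2035-fold higher than in the hepatocyte condition (adjusted p = 5.60e-15). Its call between the cholangiocyte condition and primary cholangiocytes (-1.73) compares values of which none was well above background. Slco1a1 read 2.99 to 3.91 and Slco1a4 0.11 to 0.96 in primary hepatocytes, and both lay at -4.81 or below on every other array. Both encode organic anion transporters of the rodent sinusoidal face. They were higher in primary hepatocytes than in primary cholangiocytes by 9.92 ± 0.65 and 6.54 ± 0.53 (adjusted p = 2.46e-08 and 1.99e-07). Neither was called between the hepatocyte condition and undifferentiated cells, where the differences were 1.14 ± 0.53 and 0.39 ± 0.43.

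Slco2a1, a prostaglandin transporter, was instead high in undifferentiated cells, at 5.28, 4.47, 5.04 and 4.29, and in the hepatocyte condition, at 4.28, 4.72, 4.75 and 4.70. It read 3.38, 3.59, 3.64 and 3.49 in primary hepatocytes, below every array of these groups, and 0.86 and 1.99 in primary cholangiocytes. The difference between the hepatocyte condition and primary hepatocytes was 1.09 ± 0.35 (adjusted p = 0.0155), and 1.03 (adjusted p = 0.0529) with the slide as a fixed block. Slco2a1 and Slco1a4 are also genes of endothelial cells. The summed level of 8 endothelial markers was 3.52 to 3.82 on the log2 scale in primary hepatocytes, 0.49 to 1.36 in undifferentiated cells, 0.62 to 1.59 in the hepatocyte condition and 1.30 to 1.72 in the cholangiocyte condition and primary cholangiocytes. All 8 were above background on every primary hepatocyte array and lower in the hepatocyte condition, and Cdh5, Lyve1 and Tek were above background on no array of the 3 progenitor groups. The sinusoidal endothelial gene Stab2 read 0.49 to 1.15 in primary hepatocytes. The part of endothelial RNA in these carriers' values was not tested.

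**Figure D2:**
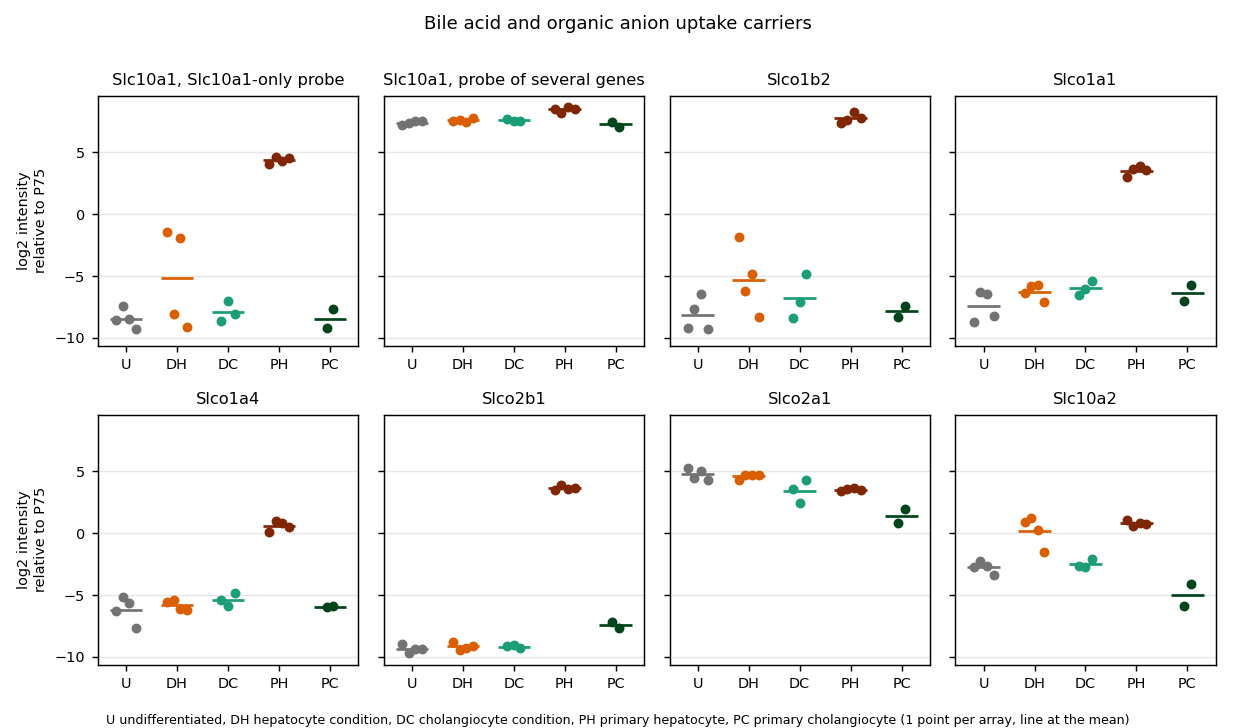
Log2 intensity relative to the 75th percentile (P75) of the array for the uptake carriers, 1 point per array with a line at each group's mean, including both Slc10a1 probes. Slco1b2, Slco1a1, Slco1a4, Slco2b1 and the Slc10a1-only probe were highest on the 4 primary hepatocyte arrays, whereas Slc10a2 read 0.90, 1.22 and 0.22 on 3 arrays of the hepatocyte condition.

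Of the 8 canalicular pumps, 6 were lower and 2 higher in the hepatocyte condition than in primary hepatocytes (33.6% and 26% of all genes). Against undifferentiated cells 1 of them, Abcg8, rose (7.58% of all genes) and none fell (7.63%). Abcb11, the bile salt export pump, read 5.29, 5.21, 5.47 and 5.74 in primary hepatocytes. In the hepatocyte condition it read 0.48, -8.28, -0.45 and -7.87, and arrays 1 and 3, the bright ones, are the arrays on which Alb was brightest in that condition (7.63 and 7.58, below primary hepatocytes) and on which the Slc10a1-only probe was above background. The summed level of 11 hepatocyte markers was 9.76 and 9.65 on these arrays, 8.72 and 8.36 on arrays 2 and 4, and 5.38 to 7.51 in undifferentiated cells. On arrays 2 and 4 this sum was carried by the fibrinogen gene Fgb (8.44 and 8.19), while Cps1, an enzyme of the urea cycle, read -8.19 and -5.91 there and 0.37 and 1.23 on arrays 1 and 3. Tat, Cyp2e1, Cyp3a11 and Asgr1 were dim on arrays 2 and 4 too. Other markers of the list stayed bright on these 2 arrays: Hnf4a (4.75 and 4.47), Apob (3.88 and 3.47) and Ttr (4.33 and 1.98). Serpina1c read 3.73 and -2.77 there. On arrays 1 and 3 Hnf4a read 5.73 and 5.96, Apob 5.04 and 4.56, and Ttr 6.46 and 6.13. The part of hepatocyte markers in the spread of Abcb11 was not tested. In undifferentiated cells, the cholangiocyte condition and primary cholangiocytes no array had Abcb11 well above background. The hepatocyte condition was at least 10.7-fold above undifferentiated cells, which was not called (adjusted p = 0.0509). Without its dim array 2 or 4 the adjusted p was 0.0132 or 0.017, and without its bright array 1 or 3 it was 0.135 or 0.149. Abcb11 was at least 7833-fold higher in primary hepatocytes than in primary cholangiocytes (adjusted p = 3.59e-05), and the hepatocyte condition lay 9.46 ± 1.58 below primary hepatocytes (adjusted p = 0.000144).

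Abcg5 and Abcg8 together form the canalicular sterol pump. Abcg5 read 4.64, 4.58, 4.97 and 4.42 in primary hepatocytes, -0.04, -2.12, 1.31 and -6.97 in the hepatocyte condition and -1.46, -5.76, -8.52 and -9.53 in undifferentiated cells. These groups overlapped, and the hepatocyte condition differed from undifferentiated cells by 4.36 ± 1.75 (adjusted p = 0.117). Without undifferentiated array 1, on which Alb was also brightest, it was 5.98 (adjusted p = 0.0233), without hepatocyte condition array 4 it was 6.04 (adjusted p = 0.0211), and without array 3 of that condition it was 3.27 (adjusted p = 0.3). Between the conditions Abcg5 was at least 40.4-fold higher under hepatocyte differentiation (adjusted p = 0.0277), a call that each omission of an array but that of hepatocyte condition array 4 ended (adjusted p up to 0.0887). The slide as a fixed block ended it too (adjusted p = 0.0728).

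Abcg8 read -5.48, -7.17, -3.83 and -8.41 in the hepatocyte condition and between -9.84 and -7.24 in undifferentiated cells, where no array had it well above background. The rise was at least 2.34-fold (adjusted p = 0.0291). It was no longer called without hepatocyte condition array 1 or 3 (2.47 and 1.92 on the log2 scale, adjusted p = 0.0763 and 0.0725) or without undifferentiated array 2, 3 or 4 (2.71, 2.42 and 2.46, adjusted p = 0.0619 to 0.0832), nor with the slide as a fixed block (adjusted p = 0.115). In primary hepatocytes Abcg8 read -0.44 to 0.03, at least 162-fold above primary cholangiocytes (adjusted p = 1.46e-06).

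Abcc2, the pump of conjugated bilirubin and other conjugates (MRP2), was well above background on every array but those of primary cholangiocytes. Undifferentiated cells gave 1.07, 0.20, -1.29 and -3.31, cholangiocyte differentiation 1.54, 1.33 and -1.58, and hepatocyte differentiation -1.95, -4.72, -0.37 and -6.84. It read 3.93 to 4.32 in primary hepatocytes and -9.56 and -9.88 in primary cholangiocytes. The cholangiocyte condition was at least 260-fold above primary cholangiocytes (adjusted p = 0.000596) and primary hepatocytes at least 3216-fold above them (adjusted p = 3.71e-06). The hepatocyte minus cholangiocyte difference was -3.90 in culture, which was not called (adjusted p = 0.0651).

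Abcg2, a pump of drugs, porphyrins and urate, ranged from 1.20 to 3.07 in the 3 cultured groups, from 4.92 to 5.43 in primary hepatocytes and from -0.36 to -0.19 in primary cholangiocytes, with no overlap between these 3 ranges. The cholangiocyte condition was above primary cholangiocytes by 2.82 ± 0.37 (adjusted p = 0.000162), and the hepatocyte condition lay 3.31 ± 0.29 below primary hepatocytes (adjusted p = 2.95e-07).

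The MDR pumps Abcb4, Abcb1a and Abcb1b are close paralogs, so that a probe may respond to more than 1 of them. Abcb4, the canalicular phosphatidylcholine flippase, read 2.39, 1.19, 1.58 and 1.81 in undifferentiated cells, 2.02, 2.55, 3.16 and 3.39 in the hepatocyte condition and 0.32, 0.12 and -0.68 in the cholangiocyte condition. Abcb1b, a drug efflux pump, read 2.61, 1.39, 1.66 and 1.93, then 2.12, 2.58, 3.26 and 3.53, then 0.05, 0.08 and -1.08 in the same groups. Outside primary hepatocytes the probes rose and fell together, with r = 0.983 (Spearman's rho = 0.984) over 13 arrays of 4 groups, given as a description, while Abcb4 and Abcb1a had r = 0.622. In primary hepatocytes they parted: Abcb4 read 5.34, 5.62, 5.79 and 5.57 and Abcb1b -3.71, -3.18, -3.72 and -5.47. Whether the probes share target RNA in the other groups was not tested, and differences of Abcb4 there are uncertain for this reason.

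Abcb1b and Abcb1a, the other drug efflux pump, were higher in the hepatocyte condition than in primary hepatocytes, by 6.89 ± 0.55 and 3.09 ± 0.37 (adjusted p = 1.26e-07 and 6.77e-06). Both were also higher in the hepatocyte than in the cholangiocyte condition, by 3.19 ± 0.60 and 2.02 ± 0.40 (adjusted p = 0.00269 and 0.00381). In primary cells the order was the other way: both were lower in hepatocytes, by 4.10 ± 0.68 and 3.30 ± 0.45 (adjusted p = 0.000175 and 3.18e-05), and the difference of differences was called for both (adjusted p = 2.57e-05 and 1.15e-05). Abcb4 was the member that was lower in the cholangiocyte condition than in undifferentiated cells (-1.82 ± 0.39, adjusted p = 0.0365). That call ended without any 1 of 6 of the 7 arrays, all but undifferentiated array 2, with adjusted p = 0.0548 to 0.145, and with the slide as a fixed block (adjusted p = 0.0964).

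**Figure D3:**
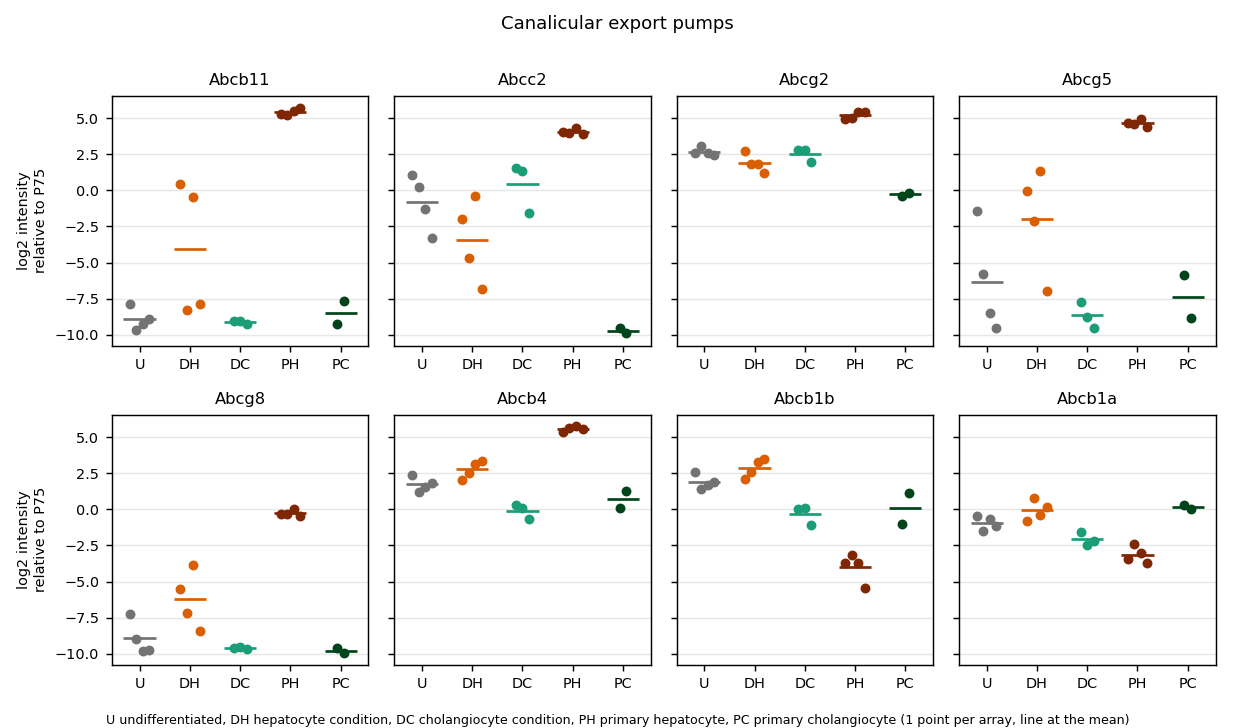
Log2 intensity relative to the 75th percentile (P75) of the array for the canalicular pumps, 1 point per array with a line at each group's mean. Abcb11 fell into 2 bright and 2 dim arrays in the hepatocyte condition, Abcc2 was dimmest in primary cholangiocytes, and Abcb4 and Abcb1b read alike except in primary hepatocytes.

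Of the 6 basolateral pumps, Abcc1, Abcc4 and Abcc5 fell in the hepatocyte condition against undifferentiated cells, where 7.63% of all genes were called lower. Abcc1 (MRP1), an exporter of glutathione conjugates and leukotrienes, read 1.30, 1.46, 1.82 and 1.93 in undifferentiated cells and 0.04, 0.33, 0.18 and 0.27 in the hepatocyte condition, a fall with no overlap (-1.42 ± 0.23, adjusted p = 0.00104). It read 1.92 to 2.17 in the cholangiocyte condition and 0.09 and 0.96 in primary cholangiocytes, and it was not well above background in primary hepatocytes. The hepatocyte condition was at least 77.9-fold above primary hepatocytes (adjusted p = 3.15e-12).

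The cholangiocyte condition stood above primary cholangiocytes by 1.53 ± 0.29 (adjusted p = 0.00255) and above the hepatocyte condition by 1.85 ± 0.25 (adjusted p = 0.000276).

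Abcc4 (MRP4), an exporter of bile acid conjugates and cyclic nucleotides, fell from 3.69, 3.96, 4.71 and 4.76 to 2.39, 2.77, 1.87 and 2.95 (-1.79 ± 0.34, adjusted p = 0.00306). It read 4.35, 4.44 and 4.57 in the cholangiocyte condition, -5.24 to -3.65 in primary hepatocytes and 2.50 and 2.36 in primary cholangiocytes. Primary hepatocytes were thus below all other arrays, and the hepatocyte condition stood 6.79 ± 0.34 above them (adjusted p = 9.14e-10). Abcc5 (MRP5), an exporter of nucleotide analogs, fell by 1.05 ± 0.26 (adjusted p = 0.0129), and of its 3 tested probes this was the only one called. The mean of its probes was not called (adjusted p = 0.127). All 3 were lower in primary hepatocytes than in primary cholangiocytes, by 3.61 to 7.79.

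Abcc6 and Abcc3 ran the other way between the primary types. Abcc6, the pump of hepatocytes whose loss causes ectopic mineralisation, read 4.67, 4.99, 4.59 and 4.57 in primary hepatocytes, -1.17, -5.20, -0.62 and -6.15 in the hepatocyte condition and -4.02, -5.58, -7.87 and -9.18 in undifferentiated cells. Arrays 1 and 3 of the hepatocyte condition were again the brightest, the groups overlapped, and the difference was 3.38 ± 1.37 (adjusted p = 0.121). Abcc3 (MRP3), which returns glucuronides to the blood, read 2.40 to 4.01 in all groups but primary hepatocytes, where it read 4.83 to 5.71. The hepatocyte condition lay 1.96 ± 0.37 below primary hepatocytes (adjusted p = 0.000364). Abcc10 spanned -1.02 to 0.69 over the 17 arrays and was not called in any of the 6 comparisons.

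**Figure D4:**
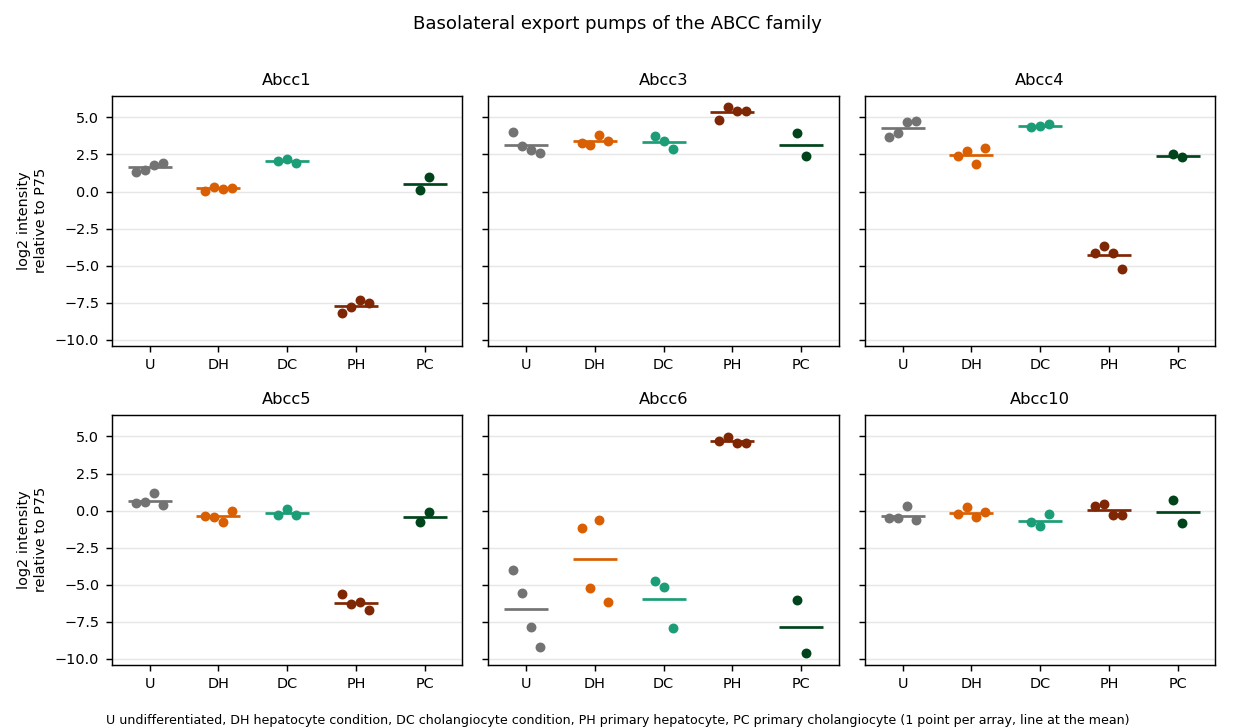
Log2 intensity relative to the 75th percentile (P75) of the array for 6 basolateral pumps of the ABCC family, 1 point per array with a line at each group's mean. Abcc1, Abcc4 and Abcc5 were lowest in primary hepatocytes and lower in the hepatocyte condition than in undifferentiated cells, and Abcc6 was bright in primary hepatocytes.

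Among 11 transporters of cellular lipid, 3 rose in the hepatocyte condition, where 7.58% of all genes were called higher, and the median difference from undifferentiated cells was 0.92 against 0.08 for all genes. The summed level of 6 stellate cell markers was -2.18 or more in the hepatocyte condition and -3.91 to -3.05 in undifferentiated cells. In the hepatocyte condition this sum was carried by the matrix gene Dcn, which read -2.67, 0.90, 0.24 and -1.39. In undifferentiated cells Dcn read -6.24 to -5.09. The other markers of this list, Col1a1, Col3a1, Lrat, Reln and Pdgfrb, overlapped between these groups. Col1a1 read -4.41, -2.02, -4.86 and -5.14 in the hepatocyte condition and -5.15 to -3.92 in undifferentiated cells. The part of stellate cell RNA in these values was not tested. Abca1, which loads cholesterol onto apolipoprotein A1, rose from -1.81, -4.75, -4.59 and -4.46 to 1.08, 0.89, 1.35 and 0.73 (4.91 ± 0.77, adjusted p = 0.000943). The 4 arrays of the hepatocyte condition lay close together, also those on which Alb was dim. Within slides 1, 3 and 5 the difference was 5.64, 2.54 and 5.67. Primary hepatocytes read 2.48 to 3.52, higher by 2.08 ± 0.77 (adjusted p = 0.0318), a call that ended without hepatocyte condition array 1, 2 or 4 or primary hepatocyte array 1, 2 or 3 (adjusted p = 0.0542 to 0.0726). Primary cholangiocytes read -2.26 and 1.16, and the higher level of Abca1 in primary hepatocytes (3.65 ± 0.95, adjusted p = 0.00548) was 1.94 (adjusted p = 0.147) without primary cholangiocyte array 3.

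Abca8b, Abca9 and Abca6 lie in a cluster of related genes of the ABCA family. Abca8b rose from -1.40, -3.67, -3.61 and -4.94 to 0.92, 0.59, 0.48 and 0.47 (4.02 ± 0.67, adjusted p = 0.00133), again with all 4 arrays together. It read 2.03 to 2.75 in primary hepatocytes, -1.46, -3.33 and -2.27 in the cholangiocyte condition and -7.30 and -4.61 in primary cholangiocytes. Its 2.97 ± 0.73 higher level in the hepatocyte than in the cholangiocyte condition (adjusted p = 0.0134) became 2.48 (adjusted p = 0.0712) without cholangiocyte condition array 2. Abca9 rose at least 1.37-fold (adjusted p = 0.00731) from values not above background. Abca6 was at least 7.79-fold higher in the hepatocyte than in the cholangiocyte condition (adjusted p = 0.000775) and at least 641-fold higher in primary hepatocytes than in primary cholangiocytes (adjusted p = 1.21e-07). With normexp correction neither call of Abca9 and Abca6 in culture held (adjusted p = 0.555 and 0.106). Against undifferentiated cells Abca6 differed by 2.01 ± 0.69 (adjusted p = 0.067), by 2.60 (adjusted p = 0.0181) without undifferentiated array 1 and by 1.11 (adjusted p = 0.0933) without undifferentiated array 4. Abcg1, another cholesterol exporter, was spread from -8.62 to -1.68 in the hepatocyte condition and was not called (3.68 ± 1.32, adjusted p = 0.0779).

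Slc10a6, a carrier of sulfated steroids, was the member with the largest rise called in the hepatocyte condition. It read -1.10, -3.16, -1.82 and -4.54 there and -8.59, -6.47, -7.72 and -8.86 in undifferentiated cells, a rise of 5.26 ± 0.69 (adjusted p = 0.000238). Both probes of Slc10a6 rose, by 5.26 and 7.74. It also stood above primary hepatocytes, which read -6.06 to -5.78, by 3.31 ± 0.69 (adjusted p = 0.000858), and above the cholangiocyte condition by 4.46 ± 0.74 (adjusted p = 0.00128). The other group values were -7.52 to -6.55 in the cholangiocyte condition and -7.89 and -5.97 in primary cholangiocytes. The probe that stood for Slc10a6 was well above background on 4 arrays of the hepatocyte condition and on 1 array of each other group. The sizes of these differences thus rest on values near background. Slc10a5, an orphan carrier, was not well above background in undifferentiated cells, the hepatocyte condition or primary cholangiocytes, and was at least 22.7-fold higher in primary hepatocytes than in primary cholangiocytes (adjusted p = 7.02e-05).

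Slco1a6, an organic anion carrier, rose at least 2.13-fold in the hepatocyte condition (adjusted p = 0.00508) from values below background, but with normexp correction the difference was 0.29 (adjusted p = 0.606). Slco3a1 and Slco1a5 were both dim in primary hepatocytes. Slco3a1, a carrier of prostaglandins, read -4.58 to -3.20 there and 1.65 to 3.51 on all other arrays. It was higher in the hepatocyte condition than in primary hepatocytes by 6.93 ± 0.42 (adjusted p = 5.95e-09), and no difference of it from undifferentiated cells was called in culture (0.19 ± 0.42 and 0.04 ± 0.45). Slco1a5 was at least 3.79-fold higher in the hepatocyte condition than in primary hepatocytes (adjusted p = 0.000154), and not called with normexp correction (adjusted p = 0.461). Slco4a1 was spread from -5.49 to 0.17 among undifferentiated cells and from -4.94 to 1.26 in the cholangiocyte condition, and it was called between the primary types, lower in hepatocytes by 5.54 ± 1.75 (adjusted p = 0.0171).

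Of the members inside the cell, the mitochondrial transporters Abcb6, Abcb8 and Abcb10 were lower in the hepatocyte condition than in primary hepatocytes, by 0.97 to 3.95. Against undifferentiated cells they were not called in either condition, with differences of -0.22 to 0.61 in the cholangiocyte condition. Abcb6, a transporter tied to heme metabolism, read 2.51 to 2.86 in primary hepatocytes and -2.52 to -0.14 elsewhere. Of the peroxisomal transporters, Abcd3, a carrier of branched-chain and bile acid precursors, read 6.47 to 7.26 in primary hepatocytes against 2.54 to 3.32 in the hepatocyte condition (-4.02 ± 0.24, adjusted p = 6.13e-09). Abcd2 was at least 12.1-fold lower in the hepatocyte condition (adjusted p = 1.23e-08), in which it was not above background.

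Abcb9, a peptide transporter of lysosomes, rose from -2.05, -2.21, -2.72 and -2.81 to -1.10, -0.25, -0.21 and -0.52 in the hepatocyte condition (1.93 ± 0.24, adjusted p = 0.000186), near its -0.05 to 0.21 in primary hepatocytes. Abcd4, which takes part in the handling of vitamin B12 in lysosomes, fell by 1.15 ± 0.24 (adjusted p = 0.00504). Abce1, a ribosome recycling factor, fell by 0.78 ± 0.15 (adjusted p = 0.0037), and Abcf1, Abcf2 and Abcf3, soluble proteins of translation, were not called there. Abcf1 and Abcf2 were not called in any of the 6 comparisons, and their values stayed within 2.67 to 3.51 and 0.73 to 1.71 over all arrays.

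Abcc8, the sulfonylurea receptor subunit of potassium channels, was the member that was higher in the cholangiocyte condition than in undifferentiated cells. It read -1.61, -0.96 and -1.56 there, -3.06, -3.28, -2.99 and -3.77 in undifferentiated cells and -3.72 to -2.93 in the hepatocyte condition. The rise was 1.90 ± 0.30 (adjusted p = 0.00694), and its other probe rose by 3.04. Between the primary types the probes disagreed, with 0.20 (not called) and -3.55 (called). They were also called in opposite directions between the hepatocyte condition and primary hepatocytes, with -1.04 and 2.51. The 1.19 ± 0.36 higher level of Abcc8 in the cholangiocyte condition than in primary cholangiocytes (adjusted p = 0.033) was 0.99 (adjusted p = 0.112) without cholangiocyte condition array 2 and 0.73 (adjusted p = 0.288) without primary cholangiocyte array 4. Abca4, known from photoreceptors, was lower in the hepatocyte than in the cholangiocyte condition by 3.62 ± 1.01 (adjusted p = 0.0258). Its call ended without cholangiocyte condition array 1 or 2 or hepatocyte condition array 2 or 4 (adjusted p = 0.0572 to 0.117). This probe was well above background on 1 of 4 hepatocyte condition arrays, so the size rests on values near background. In the limma fit over all probes, the other probe of Abca4 was lower by 2.96 (adjusted p = 0.0172). Against undifferentiated cells that other probe was called lower in the hepatocyte condition (-2.44, adjusted p = 0.0298), and the first was not (-2.54, adjusted p = 0.081).

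The 14 members higher in the cholangiocyte condition than in primary cholangiocytes comprised Abcc2, Abcg2, Slco1a5, Slc10a2, Abcc4, Abcc1, Slco2a1 and Abcc8, as given above, together with Abca8b, Slco1a6, Abca7, Abcc12, Slco1c1 and Slco5a1. Slco1a5, the largest of these differences in a SLCO carrier, read -3.82, -3.35 and -2.98 against -9.56 and -6.09, higher by 4.44 ± 0.88 (adjusted p = 0.00307), which without primary cholangiocyte array 3 was 2.71 (adjusted p = 0.0497). Slco2a1 was higher by 2.01 ± 0.45 (adjusted p = 0.00656), which without primary cholangiocyte array 3 was 1.45 (adjusted p = 0.0914). Abca8b was higher by 3.60 ± 0.87 (adjusted p = 0.01), which without that array was 2.25 (adjusted p = 0.149) and with the slide as a fixed block 3.49 (adjusted p = 0.0504). The 4 lower members were Abcb1a, Abcb9, Abcd4 and Slco2b1. The call of Abcd4 ended under median scaling, in the fit to these groups alone and without cholangiocyte condition array 1. Abcb1a read -1.59, -2.48 and -2.17 in the cholangiocyte condition and 0.29 and 0.04 in primary cholangiocytes, a difference of -2.24 ± 0.48 (adjusted p = 0.00494). Abcb9 was lower by 1.63 ± 0.31 (adjusted p = 0.00252). With 2 primary cholangiocyte arrays, the SE of these differences rests on the spread that all groups share.

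**Figure D5:**
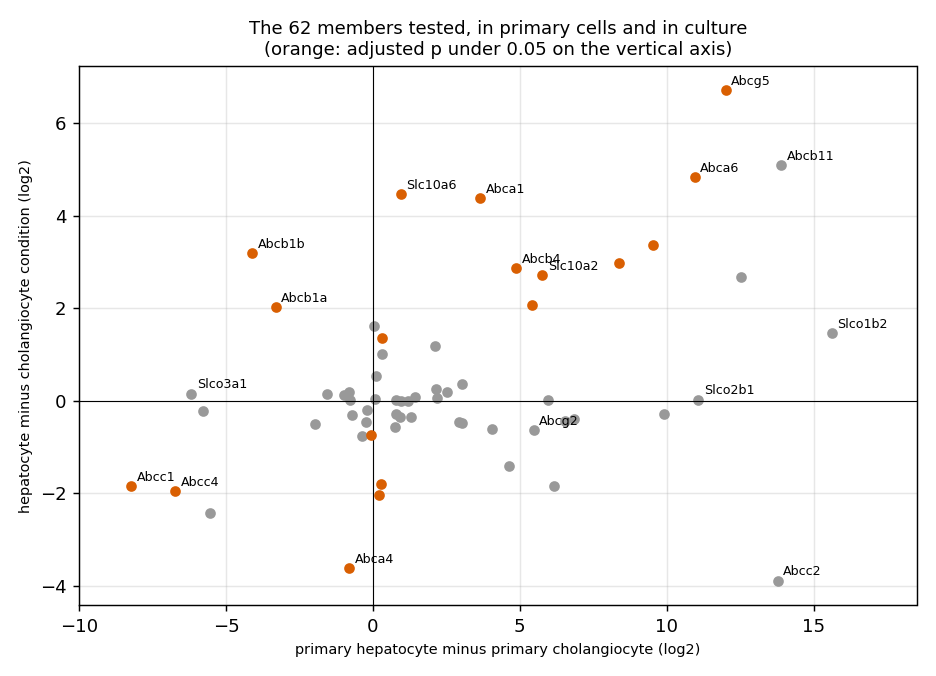
Log2 difference of the 62 members between the hepatocyte and the cholangiocyte condition (vertical axis) against that between primary hepatocytes and primary cholangiocytes (horizontal axis), 1 point per gene, with members called on the vertical axis in orange. The axes share no array, and points that rest on a group not well above background, such as Abcc2, have no measured position. Slc10a2 lies at 5.77 and 2.72.

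Set against each other, the lineage differences in culture and in primary cells were unequal for many members. The difference of differences was called for 43 of 62, 34 below and 9 above 0, where 22.2% and 15.5% of all genes were called. Slco1b2 differed by 1.46 between the conditions and 15.62 between the primary types (difference -14.15 ± 1.85, adjusted p = 3.99e-05). Abcb1b had opposite signs, with 3.19 in culture and -4.10 in primary cells, whereas for Abca1 the difference of differences was 0.72 and not called.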

How the data were processed

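Total RNA of cultured and primary mouse liver cells was amplified (WT-Ovation Pico), labelled with Cy3 and hybridised to 17 single-colour arrays on 5 slides, per the labels' protocols. The intensity values were deposited as scanner output, background-subtracted and detrended within each array by Feature Extraction, version 10.5.1.1 per the file headers and 9.53 per the submitters' processing notes. The deposited table of the authors holds signed fold changes between group means as a score, with false discovery rates. It was used as an alternative only.

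Spots of a probe were averaged, control probes and 450 probes with an outlier flag were left out, and each array was scaled to the 75th percentile of non-control probes. Probes well above background on at least 2 of 17 arrays were kept. The probe with the highest mean stood for a gene. All 25788 genes were fitted in 1 model of 5 groups (limma 3.58.1, R 4.3.3, lmFit and eBayes, Benjamini-Hochberg adjustment, threshold 0.05), after a test on simulated data. A bound written as at least N-fold compares the bright group's mean with, per dim array, the higher of the probe's own signal and the lowest signal among probes well above background. Probes were named through RefSeq accessions (26412), symbols (3854) or older symbols (735), and 8428 kept the name in the files.

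The members, the role lists and the other bile acid genes were chosen with earlier results of these data known. Genes were named by role list (uptake, canalicular, basolateral), and otherwise as the 4 largest called differences per direction and comparison, up to 2 members not called per family and up to 3 other bile acid genes per direction. Abca9 and Abce1 complete a count. Further names, among them the remaining transporters inside the cell, Slc51a and the probe listed for Slc10a1 alone, were chosen after their values were seen, as were 2 alternatives (flagged spots, and probes listed for several genes). Some member results are not reported here. Same-numbered hybridisations were not treated as pairs. The alternatives were other scalings, background corrections, filters and probe rules, a slide block, a replicate block, fits to 2 groups and the omission of each array.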

Additional observations from a re-analysis of the deposited data

Results flagged for a closer look

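Among 102 groups of 4 arrays of the 34 named members, 7 held an array far from the other 3, and chance flags about 1 in 20 groups. Abca1 read -1.81 on undifferentiated array 1, where the others read -4.75 to -4.46. Abca4 read -4.81 on primary hepatocyte array 1 (others -8.28 to -7.72), and Abca9 -8.65 on hepatocyte condition array 1 (others -6.49 to -6.35). Abcc10 read 0.31 and Slco1a5 -2.30 on undifferentiated array 3, where the others read -0.62 to -0.51 and -3.54 to -3.33. Abcd4 read 1.09 on primary hepatocyte array 4 (others 1.41 to 1.44). Slco2a1 read 4.28 on hepatocyte condition array 1 (others 4.70 to 4.75).

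For 25 of these members the hepatocyte minus cholangiocyte difference in culture differed from that in primary cells by the test of the difference of differences (limma, adjusted over all genes). It was below 0 for 18 of them, that is, less positive or more negative in culture. Among all 62 members 43 were called, where 22.2% of all genes were called below 0 and 15.5% above. For Abca6, Abca9, Abcb11, Abcc1, Abcc2, Abcg8 and Slco2b1 at least 1 of the 4 groups had no array well above background, so that their values are not measured sizes. Among uptake carriers it was -14.15 for Slco1b2, -11.06 for Slco2b1, -10.20 for Slco1a1, -6.97 for Slco1a4, -3.05 for Slc10a2 and -1.22 for the Slc10a1 probe listed for 4 genes. For the probe listed for Slc10a1 alone it was -10.05 in the limma fit over all probes (adjusted p = 0.00303). No array of the cholangiocyte condition or of primary cholangiocytes had that probe well above background, so -10.05 is not a measured size. Among canalicular pumps it was -17.67 for Abcc2, -8.80 for Abcb11, -6.18 for Abcg8, -6.12 for Abcg2 and -2.02 for Abcb4, and it was above 0 for Abcb1b (7.29) and Abcb1a (5.33). Among ABCC pumps it was above 0 for Abcc1 (6.38), Abcc5 (5.55) and Abcc4 (4.77) and below 0 for Abcc6 (-9.87), Abcc8 (-2.24) and Abcc3 (-2.13). For the other probe of Abcc8 it was 0.12 and not called (adjusted p = 0.937, limma fit over all probes). It was -6.11 for Abca6, -5.42 for Abca8b, -3.34 for Abca9 and -0.68 for Abce1, and 6.33 for Slco3a1 and 3.50 for Slc10a6. For Abcb1a and Abcb1b the differences in culture and in primary cells were both called and had opposite signs.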

How the results depend on the processing

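The number of called members kept within 1.5 times its value in 4 of the 6 comparisons under the alternatives run. The cholangiocyte condition gave the exceptions. Against primary cholangiocytes 18 members were called, with 10 in the authors' deposited table and 8 in a fit to the 2 groups alone. Against undifferentiated cells 2 were called, with 4 after normexp correction, 1 in the authors' deposited table, 1 with the slide as a fixed block and 0 by limma in a fit to the 2 groups alone, where 13 of 62 had an unadjusted p under 0.05 (16 in the model of all groups). Leaving out 1 array at a time gave 1 to 3 members there, 14 to 18 against primary cholangiocytes, 12 to 16 (undifferentiated cells) and 45 to 47 (primary hepatocytes) for the hepatocyte condition, 13 to 18 between the conditions and 39 to 45 between the primary types. Over 28 pairs of same-numbered arrays the median correlation of deviations was -0.07, with 5 above 0.1. Pairing differed between comparisons. Undifferentiated and cholangiocyte condition arrays 1 to 3 correlated at 0.38, 0.28 and 0.32. Undifferentiated and hepatocyte condition arrays 1 to 3 gave -0.03, -0.07 and -0.15, and array 4 gave 0.52. Whether same-numbered arrays share an origin was not tested. With the replicate number as a block 1 member was called in the cholangiocyte condition against undifferentiated cells, 15 against primary cholangiocytes, 15 and 47 for the hepatocyte condition, 18 between the conditions and 44 between the primary types. Scaling by the median moved the median of all genes for the hepatocyte condition against undifferentiated cells from 0.08 to -0.19 and its calls from 1956 higher and 1968 lower to 1092 and 2762. Over the scalings that median was -0.68 to -0.0094 for the hepatocyte condition against primary hepatocytes and 0.0025 to 0.87 between the primary types. Of 101 called differences of named members, 8 lost their call and 3 reversed under normexp, 7 lost it with the slide block, 3 with the replicate block (among them Slc10a2 between the cholangiocyte condition and primary cholangiocytes, 2.06, adjusted p = 0.0856) and 15 in fits to the 2 groups alone. In the authors' deposited table, of 96 with a value there, 9 lost it and 2 reversed, and of 695 values with 1 array left out 49 lost it. Some differences not called in the main fit were under 5% in the deposited table. Among them were Abcb11, Abcg1 and Abcb4, higher in the hepatocyte condition than in undifferentiated cells (false discovery rates of 3.69%, 3.69% and 4.63%). Reversals under normexp, called or not, were Abca4 (1.23), Slco1a5 (1.26) and Slco2b1 (0.54, cholangiocyte condition) against primary cholangiocytes, Slco1a6 against primary hepatocytes (-0.60) and Abca9 between the conditions (-0.091). The Slc10a1 probe listed for 4 genes reversed under quantile normalization (0.018 for the hepatocyte condition against primary hepatocytes, -0.082 between the primary types) and in the authors' deposited table (0.076 and -0.20). The mean of its probes reversed Abcc8 (0.73 and -1.68 in the same comparisons). Against undifferentiated cells, Abcg8 read -1.17 within slide 3 and Abca9 -0.39 within slide 5, in each case between 2 arrays that were not well above background, so no change of sign is read from them. The cause of these changes was not tested, and low signal over background limits Abcg8, Abca9, Slco1a6 and Slco1a5 in particular.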
